A study of Homo sapiens with 6 samples.

Results

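The p53 knockout derivative of the human colon cancer line HCT116, labelled HCT116-p53KO, was compared with its parent line, HCT116. The comparison took 4 of the 6 arrays of the series, namely 1 array for each line with control siRNA and 1 for each line with siRNA against NRF3, a transcription factor encoded by NFE2L3. Total RNA was taken 48 h after transient transfection, and 100 ng of it was labelled for an Affymetrix array of whole transcripts. The other 2 arrays, of the lung cancer line H1299 stably carrying a GFP or an NRF3 plasmid, did not enter the line difference and served an estimate of spread over 6 arrays. HCT116 levels were subtracted from HCT116-p53KO levels within each siRNA, which gives a control siRNA pair and an NRF3 siRNA pair that share no array. Of 18417 genes measured through probe sets with a single gene symbol, 14148 reached a log2 intensity of 6 on at least 1 of the 4 arrays and were compared. With 1 array a group and 2 arrays a line, the array of the second siRNA stands in for a replicate, and p-values measure the spread between these arrays only. The labels do not say how HCT116-p53KO was made or whether it is 1 clone, so loss of p53 and other differences between the lines cannot be told apart here.

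p53 is a transcription factor that is stabilised when DNA is damaged or growth signals are abnormal. It activates genes that halt the cell cycle, trigger cell death, repair DNA and restrain p53 itself through MDM2. Through the cyclin-dependent kinase inhibitor p21, encoded by CDKN1A, it also leads indirectly to repression of genes of DNA replication and mitosis. HCT116 carries an intact p53 pathway and is widely used with knockout derivatives for that reason.

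Median levels over all 33297 probe sets were 6.95 to 7.0 (log2) on the 4 arrays, and pairs of arrays correlated at 0.9807 to 0.991 (Pearson, across genes). In HCT116, NFE2L3 went from 8.97 under the control siRNA to 6.62 under the siRNA that targets it, and in HCT116-p53KO from 8.71 to 7.15. The siRNA labels therefore match its level in both lines, with NFE2L3 0.54 higher in the knockout line after NRF3 siRNA. The row of the knocked-out gene was not analysed here. Of 12 colon epithelium markers on the array, 10 reached 6 on at least 1 array. EPCAM, an epithelial surface protein, was at 10.91 to 11.42, while KRT20 and VIL1, markers of mature colonocytes, were under 6 on all 4. All 4 endothelial markers and 3 of 5 leukocyte markers, PTPRC included, were under 6 on all 4 arrays.

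The knockout line had many more strongly lower genes than strongly higher ones. Under both siRNAs, 120 genes (0.848% of those compared) were at least 2-fold lower and 25 (0.177%) at least 2-fold higher in HCT116-p53KO. Of these 145 genes, 144 had both arrays of a line above both arrays of the other, which largely follows from the 2-fold rule that picked them. Such a separation was met by 2641 genes in the higher direction (18.7%) and 2802 in the lower (19.8%) over all genes, and 4689 (33.1%) were higher and 4141 (29.3%) lower under both siRNAs. The median level of the 120 lower genes was 8.46 in the parent line and 6.97 in the knockout line. For the 25 higher genes it was 7.0 and 8.56.

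The 2 independent pairs gave like differences for the strongly changed genes. Of 182 genes at least 2-fold lower in the control siRNA pair, 181 were lower in the NRF3 siRNA pair, 161 of them by at least 1.5-fold (88.5%). Of 29 genes at least 2-fold higher in the control siRNA pair, all 29 were higher in the NRF3 siRNA pair and 27 by at least 1.5-fold (93.1%). Read from the other side, 79 genes were at least 2-fold higher in the NRF3 siRNA pair, and only 42 of those (53.2%) reached 1.5-fold in the control siRNA pair. Across all 14148 genes, which are not independent replicates, the pairs correlated with a Pearson r of 0.614 and a Spearman rho of 0.413.

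**Figure D1:**
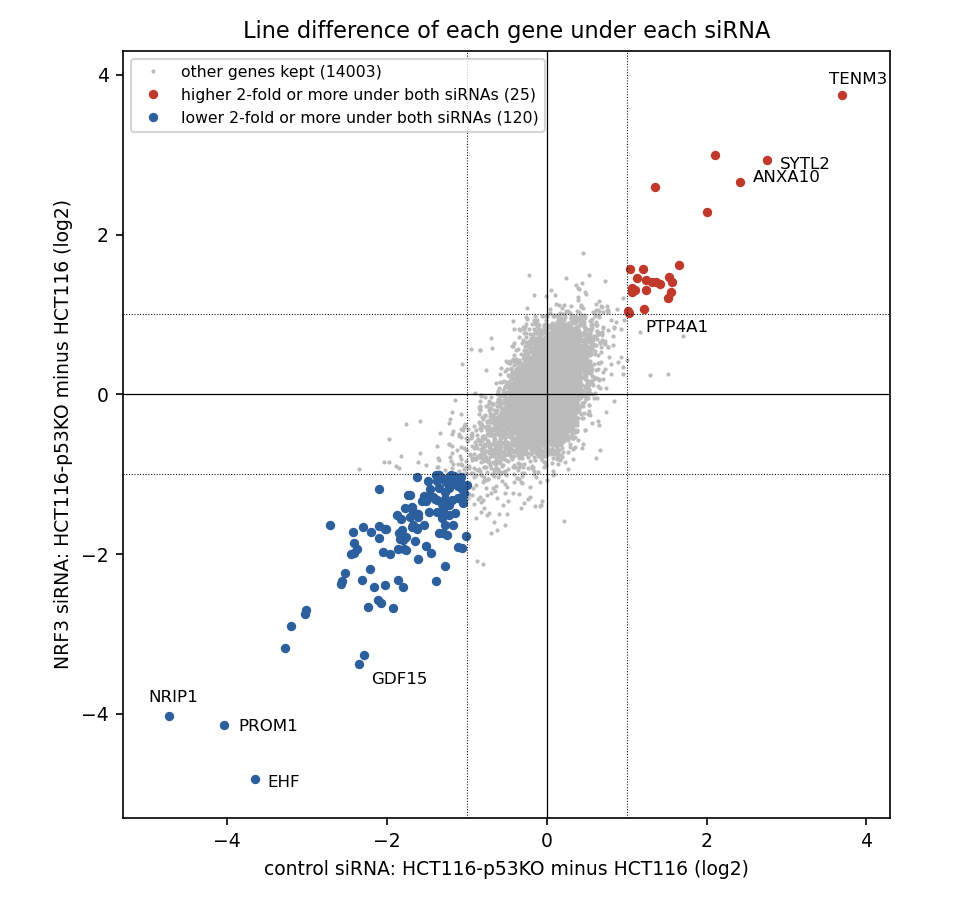
Difference between the lines (log2, HCT116-p53KO minus HCT116) of each gene compared, with control siRNA on the x axis and NRF3 siRNA on the y axis. Blue points are the 120 genes at least 2-fold lower and red points the 25 at least 2-fold higher under both siRNAs, dotted lines mark 2-fold, and the blue points reach beyond a log2 difference of -4 for PROM1 and NRIP1 under both siRNAs.

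A limma fit of the line difference with the siRNA as a block called 490 genes higher (3.46%) and 658 lower (4.65%) in HCT116-p53KO at an adjusted p of 0.05. This fit had 1 residual degree of freedom and assigned every gene the same standard error, 0.162, so a call amounts to a mean difference of at least 0.466 (log2), or 1.38-fold. "Called" refers to this fit below. With limma's prior estimate of the spread taken from all 6 arrays of the series, 28 genes were called higher (0.198%) and 152 lower (1.07%). These included all 145 genes that passed 2-fold under both siRNAs, but both rules draw on the same values, so the overlap is not separate support. Adjusted p-values below come from limma with that 6-array spread. Its SD, 0.171, was close to the 0.162 of the 4-array fit. With 5.9 prior degrees of freedom, in place of an infinite number, each gene's own spread also counted. Without the siRNA block, limma called 16 higher and 76 lower on all 4 arrays. An array can be left out only without that block, and limma then called 7 higher and 62 lower without HCT116 control siRNA, 11 and 60 without HCT116 NRF3 siRNA, 13 and 66 without HCT116-p53KO control siRNA, and 6 and 62 without HCT116-p53KO NRF3 siRNA. Against the 16 called higher on all 4 arrays, the first and the last of these move the count by over 1.5 times.

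Of the 3 genes with the greatest drop, PROM1, which encodes the stem cell surface protein prominin, was at 8.48 and 8.40 in HCT116 (control, then NRF3 siRNA) and at 4.44 and 4.26 in HCT116-p53KO. Its differences were -4.04 and -4.14 (adjusted p = 0.00056). NRIP1, a corepressor of nuclear receptors, was at 8.70 and 8.22 in the parent line and at 3.97 and 4.20 in the knockout line (adjusted p = 0.00075). EHF, an epithelial transcription factor of the ETS family, was at 8.84 and 9.35 against 5.20 and 4.53 (adjusted p = 0.0019). For each of the 3 genes the lines were far apart, and the knockout line's levels lay below the 6 that served as the expression limit, so no exact fold is given. The same held for 31 of the 120 lower genes, under 6 on both knockout arrays, and 7 of the 25 higher genes were under 6 on both parent arrays.

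The 12 other genes among the 15 lowest were of varied function. VSNL1, a neuronal calcium sensor, stood at 10.14 and 10.07 in HCT116 and at 6.86 and 6.89 in HCT116-p53KO. CASP4, an inflammatory caspase, was at 7.70 and 7.64 against 4.67 and 4.89. DPP4, a cell surface peptidase, was at 8.42 and 8.39 against 5.40 and 5.70. In these 3 genes the siRNAs gave close levels within a line, and the lines lay far apart. PXDN, a peroxidase that cross-links basement membrane collagen, was at 9.03 and 8.73 in the parent line and at 6.45 and 6.35 in the knockout line. ANO1, a calcium-activated chloride channel, was at 9.83 and 9.91 against 7.61 and 7.72. The set of 15 named by rank further held TRIM38, a ubiquitin ligase, KRT23, a type I keratin, ADAM19, a membrane metalloprotease, GCA, a calcium-binding protein, the zinc finger gene ZNF136, the read-through gene KLRC4-KLRK1 and GDF15. KLRC4-KLRK1 shares sequence with neighbouring members of its receptor family, one of which, KLRC3, was also at least 2-fold lower, so the signal cannot be assigned to 1 of them.

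A smaller set of genes was high in the knockout line. TENM3, a large adhesion protein of the teneurin family, was at 5.78 and 5.73 in HCT116 and at 9.47 and 9.48 in HCT116-p53KO, with the parent line below the expression limit of 6. SYTL2, which tethers Rab-coated vesicles to the plasma membrane, was at 6.04 and 5.47 against 8.80 and 8.40. ANXA10, an annexin, was at 5.72 and 5.92 against 8.14 and 8.58. NR5A2, a nuclear receptor of liver and intestine, was at 6.78 and 6.59 against 8.90 and 9.57. All 4 were under 7 in the parent line and above 8 in the knockout line. Higher by smaller amounts were the growth factor gene PDGFA (7.81 and 7.72 against 9.23 and 9.10), the receptor ligand gene GAS6 (8.13 and 8.40 against 9.68 and 9.68) and the kinase gene TNIK (8.88 and 8.84 against 10.26 and 10.24). CSMD3, LRP1B, ZBED2, GASK1B, STXBP6, DLG4 and the olfactory receptor genes OR51B5 and OR51I1 completed the 15 highest.

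**Figure D2:**
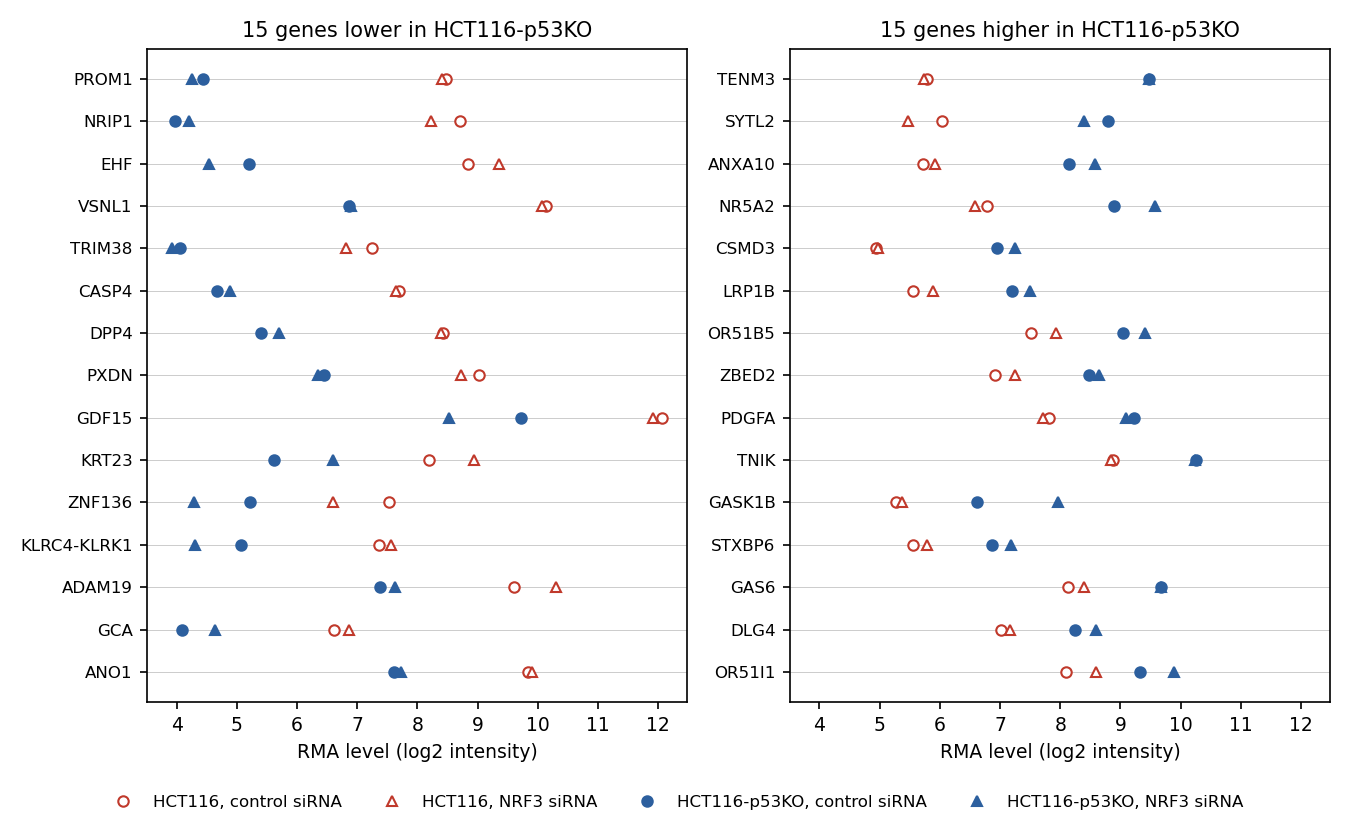
RMA level (log2 intensity, x axis) on each of the 4 arrays for the 15 genes lowest and the 15 highest in HCT116-p53KO by the smaller of the 2 differences. Open red symbols are HCT116 and filled blue symbols HCT116-p53KO, circles control siRNA and triangles NRF3 siRNA; for PROM1 the parent line sits at 8.40 and 8.48 and the knockout line at 4.26 and 4.44, and for TENM3 the order is turned.

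Other genes that passed 2-fold under both siRNAs, picked as examples after their values were seen, include abundant signalling genes. MET, the receptor of hepatocyte growth factor, was at 11.62 and 11.09 in HCT116 and at 10.01 and 9.54 in HCT116-p53KO, 2.98-fold lower (adjusted p = 0.006). EPS8, an actin regulator and substrate of the EGF receptor, was at 10.06 and 9.77 against 7.61 and 7.77, 4.68-fold lower. MYD88, the adaptor of Toll-like receptors, was at 10.09 and 9.76 against 8.61 and 8.29. All 3 were well expressed in both lines. SOCS1, an inhibitor of cytokine signalling, was at 8.61 and 8.32 against 7.45 and 7.30, and the cytokine gene IL18 was at 9.62 and 9.34 against 8.62 and 7.57. HDAC2, a histone deacetylase, was at 10.79 and 10.82 against 9.68 and 9.66. ACSL5, a fatty acid activating enzyme of intestine, was at 11.55 and 11.71 against 9.58 and 9.70, 3.95-fold lower, although its gene model overlaps that of ZDHHC6. That the knockout line was lower under either siRNA in each of these genes follows from the 2-fold rule. Higher in the knockout line were NRP1, a coreceptor of semaphorins and vascular growth factors (6.98 and 7.21 against 8.19 and 8.28), ARID5B, a chromatin regulator (8.50 and 8.64 against 9.60 and 9.96), and SCG2, a granin of secretory vesicles (6.36 and 7.07 against 7.49 and 8.53).

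Some genes went from a clear level in 1 line to below the expression limit in the other. At 7 or more on both HCT116 arrays and under 6 on both HCT116-p53KO arrays were 16 genes (0.113%), and the reverse held for 3 genes (0.0212%), TENM3, ANXA10 and LRP1B. The 16 comprised NRIP1, EHF, PROM1, CASP4, DPP4, KLRC4-KLRK1, GRIN2B, CEMIP, ODAD2, PRKAA2, TFPI, TLR3, PTGS1 and 3 zinc finger genes, ZNF234, ZNF780B and ZNF266. PRKAA2 encodes a catalytic subunit of the energy sensor AMPK and was at 7.19 and 7.19 in HCT116 and at 5.16 and 4.80 in HCT116-p53KO. TLR3, a sensor of double-stranded RNA that is also a p53 target, was at 7.76 and 7.04 against 5.46 and 5.38. Near the 2-fold limit, CPOX was just inside, with differences of -1.35 and -1.01, and ELF3 just outside, with -1.25 and -0.99; PTP4A1 was just inside on the higher side with 1.02 and 1.04, and ENO2 just outside with 0.96 and 0.94.

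Genes that p53 is known to activate were mostly lower in the knockout line. Of 103 such genes compared, 34 were called lower (33%) and 1 was called higher, against 4.65% and 3.46% of all genes. Under both siRNAs 68 were lower (66%, beside 29.3% of all genes), and 50 genes (48.5%, beside 19.8%) had both HCT116-p53KO arrays below both HCT116 arrays. The median difference was -0.20 in the control siRNA pair and -0.37 in the NRF3 siRNA pair, beside 0.00 and 0.02 over all genes. With the spread of 6 arrays, 9 were called lower and 1 higher. At least 2-fold lower under both siRNAs were 8 p53 targets, namely GDF15, TLR3, TP53INP1, ICAM1, FAS, LIF, SESN1 and CDKN1A. Members of this list beyond the 6 with the largest difference are named as known examples, after their values were seen.

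Among the targets that halt the cell cycle, 6 of 11 were called lower. CDKN1A was at 9.82 and 9.98 in HCT116 and at 8.76 and 8.07 in HCT116-p53KO, 2.81-fold lower (adjusted p = 0.032). PLK2, a kinase of the stress response, was at 9.52 and 10.47 against 8.88 and 9.54, so the lines overlapped. SFN, which encodes a protein that sequesters mitotic regulators, was at 11.37 and 11.32 against 11.33 and 11.08 and was not called. CCNG1, a cyclin, was at 11.53 and 11.88 against 11.28 and 11.29, without overlap, and was not called. E2F7 was higher, at 0.30 and 0.51, and not called. With the spread of 6 arrays only CDKN1A and PRDM1 of these arrest genes were called. The arrest genes thus ranged from clearly lower members to members that differed little, with no sharp split.

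Of 17 cell death genes, 7 were called lower. FAS, a death receptor, was at 8.10 and 8.41 in the parent line and at 6.26 and 6.60 in the knockout line, 3.54-fold lower (adjusted p = 0.004). TP53INP1, a stress protein that promotes autophagy and cell death, was at 8.78 and 8.11 against 7.39 and 5.78. BAX, which permeabilises mitochondria, was at 9.85 and 10.07 against 9.21 and 9.28. The death receptor gene TNFRSF10B was at 10.37 and 10.79 against 9.67 and 9.88. For FAS, TP53INP1, BAX and TNFRSF10B the lines did not overlap. Some of the best known members did not pass the test: BBC3 differed by 0.06 in the control siRNA pair and by -0.86 in the NRF3 siRNA pair, and PMAIP1 by -0.20 and -0.51.

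Of 6 feedback genes of p53, 4 were called lower. MDM2, the ubiquitin ligase that degrades p53, was at 10.92 and 10.86 in HCT116 and at 10.30 and 10.24 in HCT116-p53KO, differences of -0.61 and -0.63. RPS27L, a ribosomal protein paralog, was at 7.92 and 8.34 against 7.14 and 7.28. Repair and nucleotide supply gave 2 of 8 calls, both lower: RRM2B, a ribonucleotide reductase subunit, at -0.78 and -0.91, and DDB2, which recognises ultraviolet damage, at -0.59 and -0.70. In metabolism and redox, 5 of 17 were called lower, among them SESN1, a sestrin that restrains growth signalling, at -1.25 and -1.76.

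Of the 44 remaining targets, in signalling and other functions, 10 were called lower. GDF15, a stress hormone of the TGF-beta family, was at 12.07 and 11.91 in HCT116 and at 9.72 and 8.53 in HCT116-p53KO, 7.28-fold lower (adjusted p = 0.004). ICAM1, an adhesion molecule for leukocytes, was at 7.85 and 8.05 against 6.24 and 5.99. LIF, a cytokine, was at 8.07 and 7.95 against 6.43 and 6.46. For these 3 genes both knockout arrays were below both parent arrays. PTP4A1, a membrane-bound phosphatase, was the 1 target called higher, at 10.89 and 10.80 against 11.92 and 11.84. Of 29 regulators of p53, MDM4 alone was called, higher at 0.32 and 0.76, and the list's median differences were 0.06 and 0.17.

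**Figure D3:**
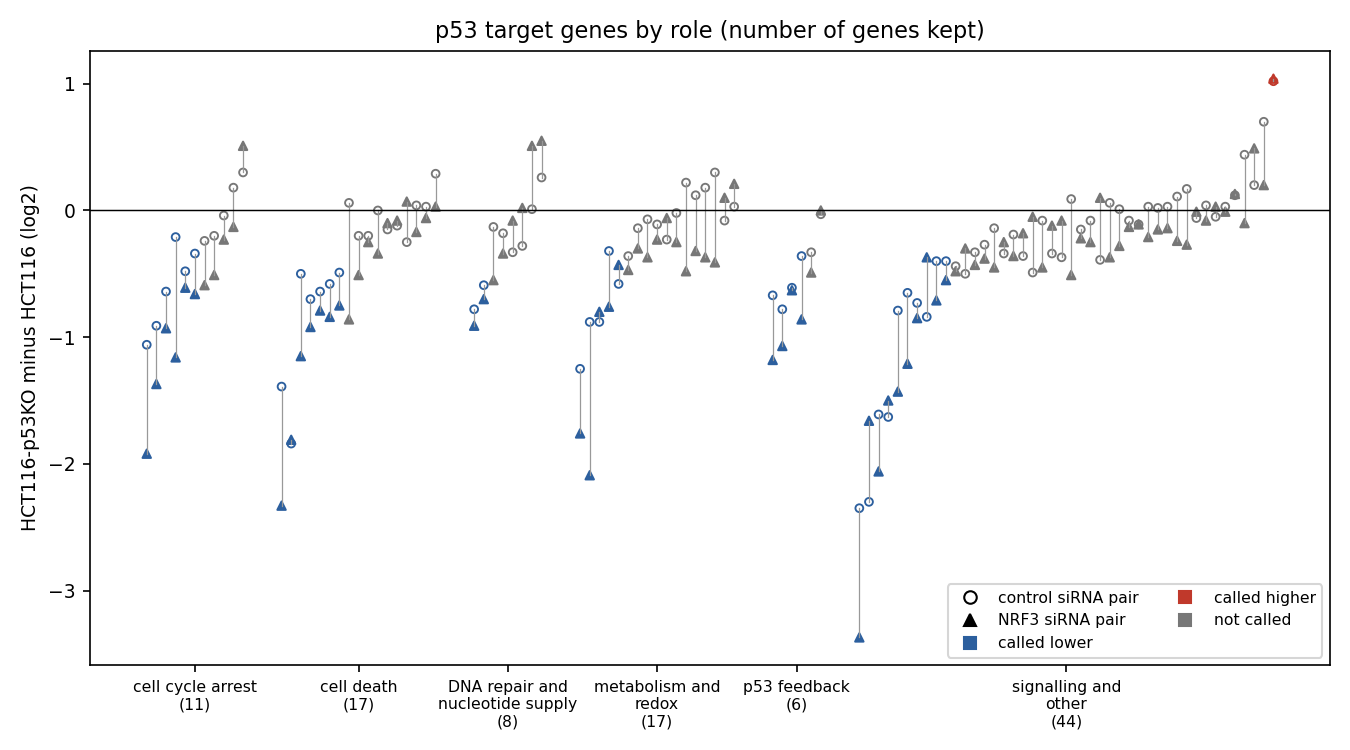
Difference between the lines (log2, HCT116-p53KO minus HCT116, y axis) of the 103 p53 target genes compared, grouped along the x axis by role. Each gene has an open circle for the control siRNA pair and a triangle for the NRF3 siRNA pair joined by a line; blue marks the 34 genes called lower, red the 1 called higher (PTP4A1), and GDF15 lies lowest at -2.35 and -3.37.

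Genes of mitosis were higher in the knockout line under NRF3 siRNA and near equal in the lines under control siRNA, a difference between the pairs that was not tested. Of 39 genes of G2 and mitosis, 9 were called higher in HCT116-p53KO (23.1%, beside 3.46% of all genes) and 0 lower. With the spread of 6 arrays limma called 0. The list's median difference was 0.66 in the NRF3 siRNA pair and 0.03 in the control siRNA pair. The HCT116 NRF3 siRNA array was the lowest of the 4 for 36 of the 39 genes (92.3%), against 31.7% of all genes. Median levels of the list were 10.16 and 9.35 in HCT116 and 10.06 and 9.92 in HCT116-p53KO. Without the NRF3 siRNA pair, 21 of the 39 genes lay above 0.

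Of the 42 E2F and replication genes, 7 were called higher (beside 3.46% of all genes) and 0 lower, and again 0 with the 6-array spread. Their median difference was 0.14 in the control siRNA pair and 0.57 in the NRF3 siRNA pair, and 34 were higher under both siRNAs (81%, beside 33.1% of all genes). The HCT116 NRF3 siRNA array was lowest for 30 of them (71.4%). CDC7, a kinase that fires replication origins, was at 0.19 and 1.08, and ORC6, a subunit of the origin recognition complex, at 0.41 and 1.04. The largest differences of the mitotic list that held under both siRNAs were those of CDC25C, the phosphatase that activates the mitotic kinase (7.80 and 6.77 in HCT116 against 8.29 and 8.03), and of MAD2L1, a spindle checkpoint protein (9.11 and 8.66 against 9.72 and 9.72). CENPE, a kinetochore motor, differed by 0.06 and 1.30, so its call came from the NRF3 siRNA pair.

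**Figure D4:**
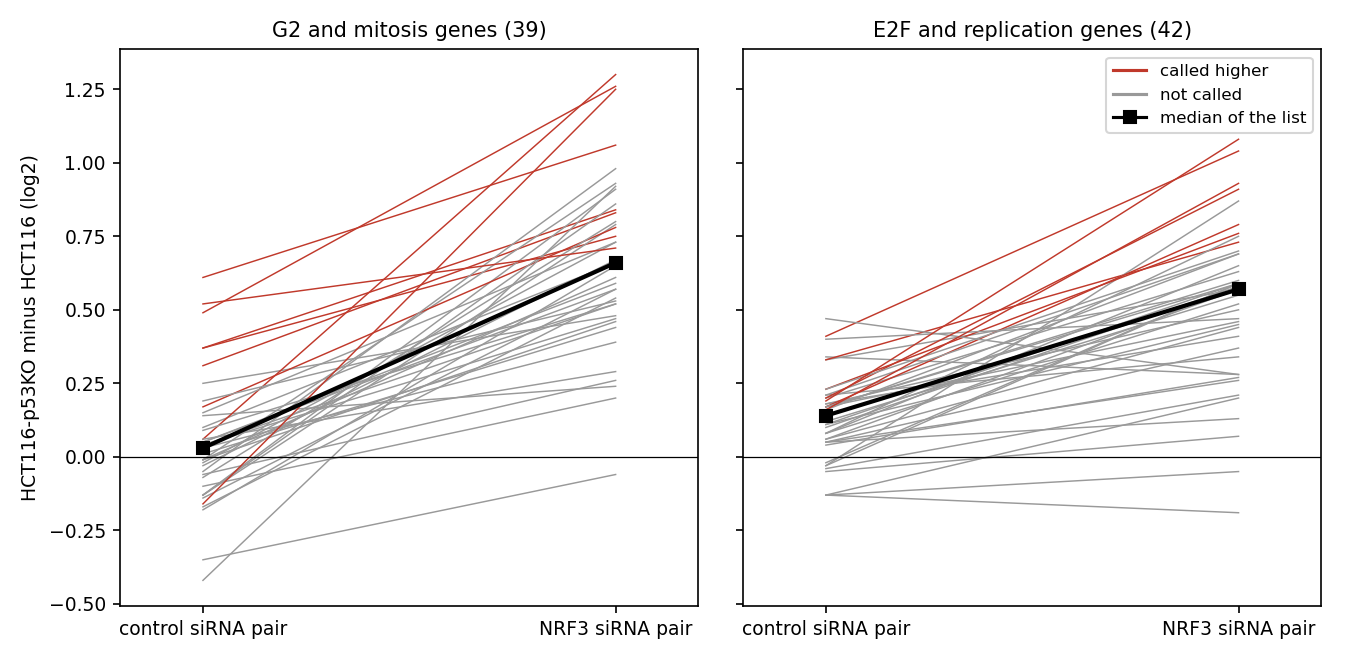
Difference between the lines (log2, HCT116-p53KO minus HCT116, y axis) of each gene of G2 and mitosis (left) and of E2F and replication (right), with the control siRNA pair joined by a line to the NRF3 siRNA pair. Red lines are genes called higher, grey lines genes not called, and black squares the list medians, which go from 0.03 to 0.66 on the left and from 0.14 to 0.57 on the right.

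The promoters of mitotic genes often hold the CHR, a motif of 6 letters, TTTGAA, bound by the complex through which p53 and p21 are known to repress them. The search for it on both strands (TTCAAA on the other) was chosen after the values were seen. Within 250 bases before to 50 after the start of RefSeq genes (GRCh38.p14), it was present in 21 of the 32 mitotic genes with a promoter sequence (65.6%), in 2 of 37 replication genes (5.41%) and in 1065 of 11093 genes compared (9.6%). Of the 9 mitotic genes called higher, 4 held it. Their stretches of 30 bases are shown with the motif in capitals, 5′ to 3′ on the gene's strand, to let the reader see where it sits. The motif starts 29 bases before the gene's start in PLK1 (chr16:23678848-23678877, plus strand), and at base 25 after it in MAD2L1 (chr4:120066807-120066836, minus strand), 35 in SKA1 (chr18:50375066-50375095, plus strand) and 17 in NUF2 (chr1:163321958-163321987, plus strand).
PLK1: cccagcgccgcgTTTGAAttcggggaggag
MAD2L1: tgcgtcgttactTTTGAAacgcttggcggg
SKA1: ggcgcggcgggcggTTTGAAttttgcttac
NUF2: ggaggcggcaagTTTGAAaagtgatgacgg
PLK1, a mitotic kinase, was at 12.45 and 11.74 in HCT116 and at 12.76 and 12.57 in HCT116-p53KO. SKA1, which couples kinetochores to microtubules, was at 8.79 and 8.27 against 9.31 and 8.98. NUF2, a kinetochore protein, differed by -0.16 in the control siRNA pair and by 1.25 in the NRF3 siRNA pair. Of 23 mitotic genes not called higher, 17 also hold the motif (73.9%), so its presence did not separate called from uncalled members. The p53 motif, a pair of half-sites of 10 bases with up to 2 mismatches in all and a spacer of up to 13, was found in 0 of 28 promoters of p53 targets called lower, in 4 of 59 of those not called lower (6.78%) and in 262 of 11093 (2.36%) of all, and its absence says only that these letters are not in this window.

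Genes of interferon response and antigen presentation were lower where called. Of 40 compared, 8 were called lower (20%, beside 4.65% of all genes) and 0 higher, and 26 were lower under both siRNAs (65%, beside 29.3%); the medians were -0.32 and -0.14. SAMD9, an antiviral effector, differed by -2.72 and -1.64, and IFI35, an interferon-induced protein, by -1.54 and -1.27. B2M, the invariant chain of class I molecules, differed by -1.10 and -0.52, and PSMB9, a subunit of the immunoproteasome, by -0.84 and -0.63. With the spread of 6 arrays 2 of the 8 were called. All 5 APOBEC3 genes compared, which encode cytidine deaminases active against viruses and share sequence, were lower under both siRNAs, and 4 were called, with APOBEC3C at -0.74 and -1.26. With the 6-array spread limma called 0 of these 5 genes.

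Epithelial adhesion genes showed a drop in desmosomal cadherins. DSC3 differed by -1.62 and -1.67 and DSC2 by -1.61 and -1.50, and both were at least 2-fold lower under both siRNAs. DSG2, a partner cadherin, differed by -0.78 and -0.27, which makes 3 of 10 desmosome genes called lower. Of 25 adherens and tight junction genes, 2 were called lower (8%), a share near the 4.65% of all genes: CLDN4, a claudin, at -0.82 and -1.35, and CDH1, E-cadherin, at -0.61 and -0.38. A list of 18 genes held integrins, laminins and the tetraspanins CD9 and CD151. Of these 18 genes, 8 were called lower (44.4%) and 0 higher, and CD9 and CD151 were not called. ITGB4, the hemidesmosome integrin, differed by -0.86 and -1.31 and LAMB1, a laminin chain, by -0.91 and -0.92. Only 1 of these 8 was called with the 6-array spread.

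Colon identity genes were partly lower. Of 24 compared, 4 were called lower (16.7%, beside 4.65% of all genes) and 0 higher: PPARG, a nuclear receptor of differentiated colon epithelium, at -1.69 and -1.66, ELF3, an epithelial ETS factor, at -1.25 and -0.99, CEACAM1, an adhesion molecule, at -0.91 and -1.03, and CA2, a carbonic anhydrase, at -0.64 and -0.30. Of 12 keratins, 3 were called lower, KRT23 (-2.57 and -2.34), KRT18 (-0.74 and -0.60) and KRT8 (-0.41 and -0.64), and KRT80 was called higher (0.95 and 0.34). Of 31 mesenchymal genes, 5 were called lower (16.1%) and 0 higher, led by SPARC, a matrix glycoprotein, at -1.98 and -0.85, and S100A4 at -1.74 and -1.26. Called members of the epithelial and the mesenchymal lists were thus lower alike, KRT80 excepted.

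Signalling genes differed in several pathways. In the TGF-beta and BMP list, 7 of 31 were called lower (22.6%) and 2 higher (6.45%), beside 4.65% and 3.46% of all genes. TGFBR2, the type II receptor, differed by -1.85 and -1.73, ID2, an inhibitor of differentiation factors, by -1.17 and -1.12, and SMAD3, a signal transducer, by -0.83 and -0.96. The ligand TGFB1 was higher, at 0.83 and 0.73. In the WNT list, 4 of 21 were called lower (19%), among them RNF43, a ubiquitin ligase that removes WNT receptors (-2.01 and -1.68), and CD44 (-1.26 and -1.10), and 2 were called higher, the secreted inhibitor DKK1 (1.70 and 0.73) and BMP4 (0.64 and 0.31). JAG1, a NOTCH ligand, differed by -2.08 and -2.61 and was 1 of 2 genes called among 19 of the NOTCH list. A list of 23 genes held EGF family ligands and receptors and also feedback and downstream genes, such as DUSP6 and EGR1. Of the 23, 6 were called lower (26.1%), namely EREG, EGFR, LRIG1, LRIG3, DUSP4 and DUSP6. The ligand EREG differed by -1.10 and -0.96 and the receptor EGFR by -0.77 and -0.82. EGR1, an early response transcription factor, was called higher at 1.29 and 0.24.

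Extracellular proteases and their inhibitors included 7 called lower of 19 (36.8%, beside 4.65% of all genes) and 1 called higher. ADAM19 differed by -2.24 and -2.66, KLK6, a kallikrein, by -1.27 and -1.31, and MMP7, a matrix metalloprotease, by -0.89 and -1.55, while PLAU, the urokinase, was higher at 0.68 and 0.40. In the list of annexins and S100 proteins, 7 of 22 were called lower (31.8%), with ANXA2 at -0.77 and -0.80, and ANXA10 alone was called higher. Glycolysis and hypoxia genes split, with 5 of 33 called lower (15.2%) and 2 higher (6.06%). SLC2A1, the main glucose transporter, was 3.66-fold lower at -2.10 and -1.65, and ENO2, an enolase, was higher at 0.96 and 0.94. Of 25 drug and aldehyde metabolism genes 5 were called lower (20%), with CYP24A1, which inactivates vitamin D, at -1.40 and -1.31. Of 22 NRF2-type antioxidant genes, 3 were called lower (13.6%), with ABCC2, an efflux pump, at -1.49 and -1.08 and NQO1, a quinone reductase, at -0.54 and -0.74. PALB2, a partner of BRCA2 in DNA repair, was higher at 0.96 and 1.20, 1 of 2 called among 22 repair genes.

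Of 20 HOX genes, 7 were called lower (35%, beside 4.65% of all genes) and 0 higher, and 6 of those 7 belong to the HOXB cluster. HOXB8 was lowest, with -1.51 and -1.90, followed by HOXB3 at -1.36 and -0.79, and with the 6-array spread 1 of the 7 was called. HOX genes encode transcription factors of body axis position. In some lists no gene was called: 0 of 29 ribosomal proteins, 0 of 8 metallothioneins and 0 of 15 CDK inhibitors and G1 cyclins (CDKN1A is counted among the p53 targets), where limma with the 6-array spread also called 0. In other lists few genes were called, though for some the share was above the 3.46% higher or 4.65% lower of all genes. Respiratory chain genes had 2 of 32 called higher, cholesterol synthesis genes 2 higher and 1 lower of 20, imprinted genes 1 each way of 17, YAP and TAZ targets 2 each way of 19, ATF4 targets 1 higher of 26, listed protocadherins 1 lower of 4 and cancer-testis antigens 0 of 6. The protocadherins listed were PCDHB9, PCDHB14, PCDH1 and PCDH7. PCDHGB4 and the PCDHA genes compared were not on that list and were not called. NF-kappaB targets had 4 of 14 called lower (28.6%), TNFAIP2 and the chemokine genes CXCL1, CXCL2 and CXCL8, and 0 of the 14 with the 6-array spread. TNFAIP2 differed by -0.66 and -0.50, CXCL1 by -0.21 and -1.28, CXCL2 by -0.32 and -0.70, and CXCL8 by -0.35 and -1.24. The list's median difference was -0.02 in the control siRNA pair and -0.39 in the NRF3 siRNA pair.

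Neighbouring genes differed together at several places. With genes put in RefSeq order, 9 runs of 4 or more neighbouring genes were called in 1 direction, 5 higher and 4 lower. One run of 5 lower genes held ANKRD22, STAMBPL1, ACTA2-AS1, ACTA2 and FAS, with ANKRD22 at -1.11 and -1.30 and STAMBPL1 at -1.08 and -1.04; the models of ACTA2 and FAS overlap, so part of their signal may be shared. A run of 6 higher genes was made of olfactory receptor genes next to one another, OR51B2, OR51B5, OR51M1, OR51I1, OR51I2 and OR52D1, at 0.65 to 1.53 in the control siRNA pair. The gene model of OR51B5 overlaps OR51M1, OR51I1, OR51I2 and OR52D1, so these 5 are not independent. Of 12 genes of this receptor group compared, 6 were called higher and 0 lower, beside 3.46% and 4.65% of all genes. With the 6-array spread 3 were called higher, beside 0.198% of all genes. The list of 12 was drawn up after the values were seen.

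Both of the next runs of lower genes lay in zinc finger clusters: ZNF566, ZNF567, ZNF850 and ZNF585A, with ZNF850 at -1.81 and -1.70, and ZNF577, ZNF649, ZNF613 and ZNF350, with ZNF613 at -1.84 and -0.92. These genes encode DNA-binding repressors that arose by duplication, and their probe sets may share signal. Over all 352 numbered ZNF genes, 27 were called lower (7.67%) and 19 higher (5.4%), not far from the 4.65% and 3.46% of all genes. At least 2-fold lower under both siRNAs were 8 of the 352, beside 0.848% of all genes. At least 2-fold higher were 0, beside 0.177% of all genes. The 8 were ZNF136, ZNF234, ZNF266, ZNF426, ZNF462, ZNF485, ZNF780B and ZNF850. A run of 5 held RCAN2, SLC25A27, PLA2G7, ADGRF1 and TNFRSF21, with ADGRF1, an adhesion receptor, at -1.63 and -1.69 and PLA2G7, a secreted phospholipase, at -1.17 and -1.64.

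The other 4 runs of higher genes lay on 1 chromosome, in or at the edge of 1 region. Over a running median of 25 genes, both pairs stayed at 0.2 or more for 99 genes in a row, from TRIO to KGD4, the longest such stretch found. Its start depends on the cut, since the running medians (control, then NRF3 siRNA pair) were 0.20 and 0.30 at CTNND2, next to TRIO. Further before it, at LINC02145, they were 0.22 and 0.53. A stretch of 8 genes from CLPTM1L to IRX2-DT, 2 of them called higher (25%), lies still nearer that end of the chromosome. In the stretch of 99 genes from TRIO to KGD4, 47 were called higher (47.5%) and 7 lower, and 71 were higher under both siRNAs (71.7%). The median difference was 0.31 in the control siRNA pair and 0.58 in the NRF3 siRNA pair. Over the other 486 genes of the chromosome, those before TRIO included, 33 were called higher (6.79%), with medians of 0.00 and 0.02. None of the 99 genes was 2-fold higher under both siRNAs, and with the 6-array spread limma called 0 of them higher, so the region is marked by many small differences rather than a few large ones. The region was chosen from these values, and DNA copy number was not tested.

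Genes in that region include several of the cell cycle. CCNB1, cyclin B, was at 10.57 and 9.82 in HCT116 and at 10.94 and 10.67 in HCT116-p53KO. CENPK, a centromere protein, was at 8.96 and 8.35 against 9.49 and 9.84, and CENPH, another, at 6.10 and 5.37 against 6.56 and 6.45. RAD1, a checkpoint protein, was at 8.98 and 8.03 against 9.39 and 8.90. In CCNB1, CENPK and CENPH both knockout arrays were above both parent arrays, and RAD1 overlapped. HMGCS1, an enzyme of cholesterol synthesis, also lies there, at 0.36 and 0.64. CCNB1 is the 1 member of the mitotic list in the region, and without it 8 of 38 were called higher, with medians of 0.02 and 0.66. The next longest stretch, of 26 genes from UGT8 to PGRMC2 on another chromosome, had 9 called higher (34.6%) and 0 lower, with medians of 0.30 and 0.47. The longest stretch in the lower direction held 6 genes, from STAMBPL1 to LIPA.

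**Figure D5:**
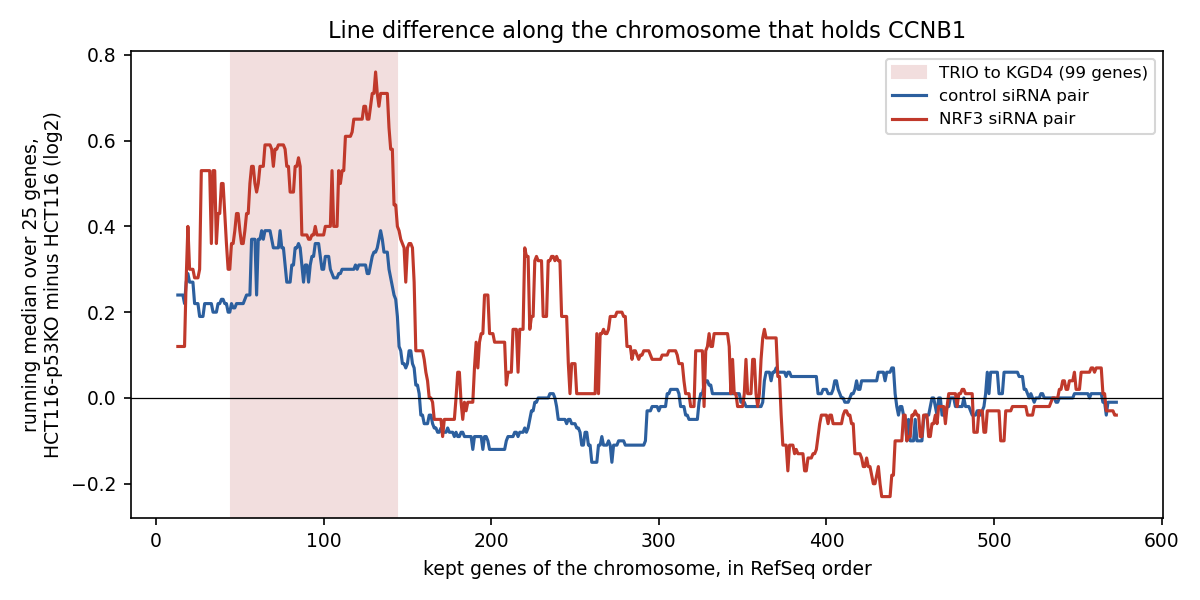
Running median over 25 genes of the difference between the lines (log2, HCT116-p53KO minus HCT116, y axis) along the 585 genes compared on the chromosome that holds CCNB1, in RefSeq order (x axis). The shaded 99 genes from TRIO to KGD4 have both lines at 0.2 or more, the control siRNA pair in blue and the NRF3 siRNA pair in red. Past KGD4 both fall towards 0, with no such fall just before TRIO.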

How the data were processed

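The authors deposited log2 intensities of 33297 probe sets for 6 arrays, which the submitters' processing notes credit to Affymetrix Expression Console and its RMA method; no genome build is given in the sources. RMA shrinks differences at low intensity. GEO's platform annotation gave 1 symbol for 19460 probe sets, several for 1754 and none for 12083, and 1 probe set per gene was kept, that with the highest mean over the 6 arrays. Genes under 6 on all 4 arrays were left out. Line differences were fitted with limma 3.58.1 (R 4.3.3; siRNA as a block, two-sided, Benjamini-Hochberg adjustment over 14148 genes), which was tested on simulated data. The 6-array spread is the limma prior of a 6-array fit (5.9 degrees of freedom, SD 0.171). Gene order and promoter sequences came from RefSeq (GRCh38.p14). The members and lists were chosen with earlier results of these data known. Named were the 15 highest and 15 lowest genes by the smaller of both differences, small RNAs left out, up to 6 per list with the largest mean difference, NFE2L3 and runs of 4 or more called neighbours; other named members were chosen after their values were seen. Alternatives were other filters, normalizations, priors, probe set rules, thresholds and single arrays or pairs left out. The number of arrays limits the precision.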

Additional observations from a re-analysis of the deposited data

Results flagged for a closer look

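For 4 gene lists the median difference between the lines had opposite signs in the control siRNA pair and the NRF3 siRNA pair, and this difference between the pairs was not tested. For WNT targets the medians were 0.07 and -0.27, for YAP and TAZ targets 0.15 and -0.08, for ATF4 and amino acid stress genes 0.11 and -0.10, and for the 4 listed protocadherins 0.01 and -0.37, in that order of the pairs.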

How the results depend on the processing

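The lines were paired by siRNA, with the siRNA as the block. Each group has 1 array, so neither siRNA had replicate pairs. The number of limma calls depended on the estimate of spread and on normalization. Beside 490 higher and 658 lower, limma called 304 higher with no expression filter, 91 and 328 after quantile normalization over 4 arrays, 159 and 428 over 6 arrays, 52 and 216 after loess correction on the mean level, 16 and 76 with no siRNA block, 28 and 152 with the 6-array prior, 706 and 703 with a trended and robust prior, and 1 and 2 with each gene's own residual, where 954 genes had an unadjusted p under 0.05 and 0 of the calls were shared with the fit reported. Leaving out 1 array, with no siRNA block, gave 6 to 13 higher and 60 to 66 lower. The counts at 2-fold under both siRNAs (25 and 120) were 22 to 27 and 110 to 124 under the other filters, normalizations and probe set rule, 84 and 319 at 1.5-fold and 6 and 50 at 3-fold. In single pairs, 182 genes were 2-fold lower with control siRNA, and 79 were higher and 192 lower with NRF3 siRNA. The p53 target list's mean was -0.41 against its median of -0.26. The 30 genes named by rank kept direction and call under the 3 other normalizations, the mean of probe sets and the 6-array prior. Their direction in each single pair was fixed by the rule that picked them, so it is no check. Of all 222 named genes, 78 lost the call after loess correction, 57 and 34 after quantile normalization over 4 and 6 arrays, and 90 with the 6-array prior, and none changed direction. The cause of these changes was not tested.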
